A study of Rattus norvegicus with 6 samples.

Results

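The genes described here encode the constitutive proteasome, the protein complex that degrades ubiquitin-tagged proteins in the cytoplasm and nucleus. They were chosen by gene name, as PSMA1 to PSMA7, PSMB1 to PSMB7, PSMC1 to PSMC6, PSMD1 to PSMD14 and PSME1 to PSME3. The inducible immunoproteasome subunits were left out. Earlier results of these data were known when the choice was made. Of the 37 genes named, 36 were listed among the 17648 rows of the expression matrix, and all 36 were among the 8495 genes with a mean value of at least 1 that were tested. PSME1 had no row under that name and was not analysed here. PSMA3 had the same values in all 6 libraries as a row listed as PSMA3L, so its level is uncertain, and both rows were counted as 1 gene.

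The proteasome is built from a barrel-shaped core, called 20S, and a cap, called 19S. The core is a stack of rings: the outer alpha rings form the gate, and the inner beta rings carry the protein-cutting sites. The cap has a base, whose ring of ATPases unfolds the substrate and feeds it into the core, and a lid, which removes the ubiquitin chain. Dedicated chaperones help assemble both parts, and PA28 complexes can open the core in place of the cap. In neurons, as in other cells, this complex turns over short-lived and damaged proteins alongside autophagy, the lysosomal route that the study addressed.

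Neurons were taken from the spinal cords of neonatal Sprague-Dawley rats and cultured for 3 days, with Ara-C to reduce dividing cells. Of the 6 libraries, 3 came from neurons given a control siRNA (small interfering RNA), called Glu + siR-Con. The other 3 came from neurons given an siRNA that targets GAL3 (galectin-3, gene LGALS3), called Glu + siR-GAL3. By the methods and the design text, both groups were exposed to 10 μM glutamate for 1 h and kept for another 16 h without it, whereas the sample labels give saline for the Glu + siR-Con libraries and a GAL3 knockout for the others. The comparison asks what GAL3 knockdown changes in glutamate-injured neurons. Nothing in the labels says that the replicates were separate cultures, so the p-values measure only the spread between these libraries, which may be technical.

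Several features of the libraries bear on every value below. The authors' values were derived from FPKM and then corrected, so depth is unknown, and every SD is the spread left after that correction. LGALS3, the targeted gene, ranged from 54.4 to 77.4 in siR-Con and from -1.64 to 32.3 in siR-GAL3, with no overlap. In siR-GAL3 replicates 1, 2 and 3 it was at -1.64, 32.3 and 18.5, so the value left was highest in replicate 2. Exactly equal values divided the libraries into 3 sets, with both replicates 1 in one set, siR-GAL3 replicate 3 beside siR-Con replicates 2 and 3 in another, and siR-GAL3 replicate 2 by itself. The summed neuronal markers (9 of 10 listed) were low, at 30.1 to 36.9, and the defining marker RBFOX3 was at 0.300 to 0.429. Summed astrocyte markers were at 751.7 to 1012 and summed oligodendrocyte markers at 836.4 to 1158, so the RNA held much glial transcript under the neuronal label.

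Across the 6 libraries, the mean level of the members ran from 1.96 for PSMD10 to 18.4 for PSMC1, on the authors' linear scale per transcript length. The 3 catalytic subunits were among the lower members of the core, at 2.01 for PSMB5, 3.08 for PSMB7 and 5.77 for PSMB6. The other 4 beta subunits lay between 8.28 (PSMB3) and 17.5 (PSMB2), although each occupies the same number of places in the ring.

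**Figure D1:**
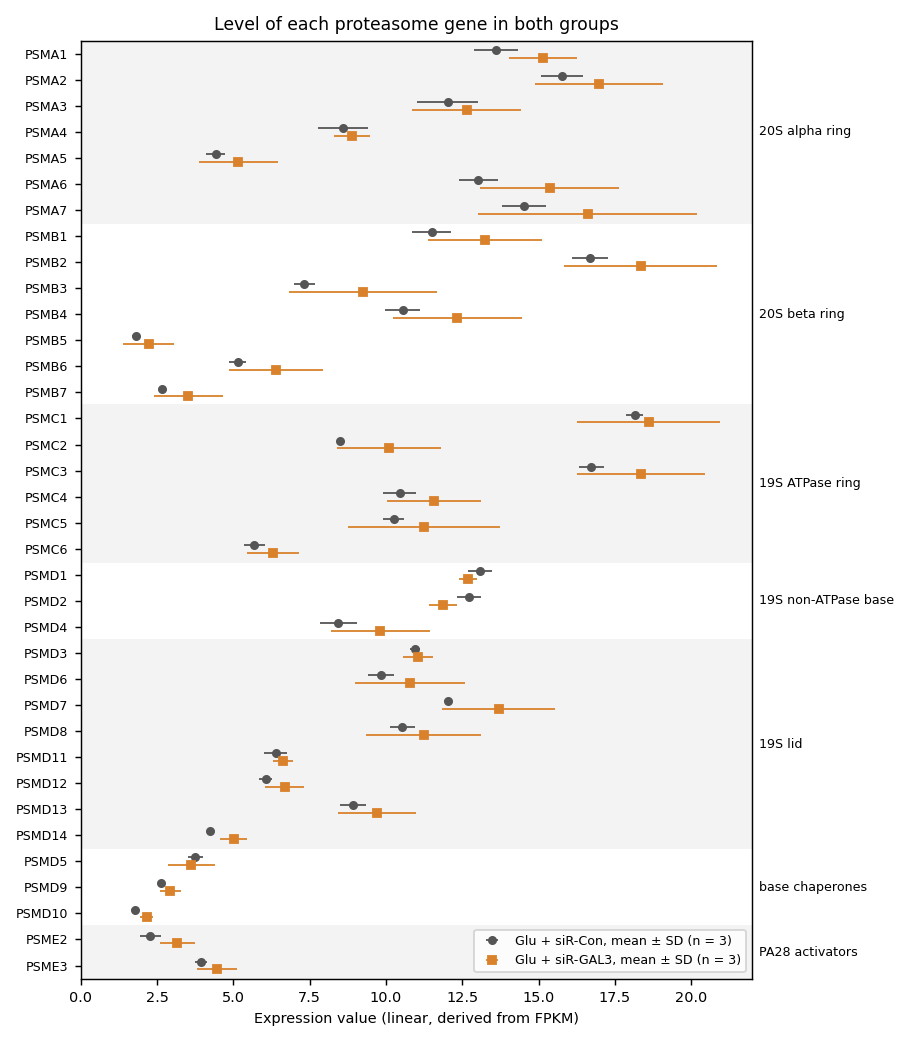
Level of each constitutive proteasome gene on the deposited linear scale, grouped by ring or role, with circles for Glu + siR-Con and squares for Glu + siR-GAL3 and bars for the SD (n = 3 each). The genes span means over the 6 libraries from 1.96 (PSMD10) to 18.4 (PSMC1), and the bars of siR-GAL3 are wider for most genes.

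The main pattern among these genes was a single library. In siR-GAL3 replicate 2, 33 of the 36 members had their highest value of the 6 libraries, where 41.5% of all genes tested had theirs. It held the lowest value of 1 member, PSMD1, and of 35.1% of all genes. For 29 members that value was at least 1.1 times the highest of the other 5 libraries, against 28.3% of all genes. Summed over the 36 members, replicates 1, 2 and 3 of siR-Con had 334.2, 322.4 and 317.9, and the same replicates of siR-GAL3 had 326.5, 413.2 and 333.5. Without siR-GAL3 replicate 2, the sums of the remaining libraries of both groups overlapped and lay within 317.9 to 334.2. As a share of the column total, the members made up 0.638% in that library and between 0.494% and 0.519% in the others. The median coefficient of variation of the members was 4.80% within siR-Con and 13.9% within siR-GAL3, against 5.36% and 13.2% over all genes. These are whole-culture values, in which a larger share of cells rich in these transcripts and more of them per cell cannot be told apart. Because siR-GAL3 replicate 2 formed a library set by itself, a difference in how that library was prepared or corrected cannot be told apart from either.

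The ratio of siR-GAL3 replicate 2 to the mean of the other 5 libraries had a median of 1.27 over the members and of 1.03 over all genes tested. Among the rings, it was highest for the beta ring (median 1.53) and lower for the ATPase ring (1.27), the lid (1.24) and the alpha ring (1.23). The 2 PA28 genes listed had a median ratio of 1.41 and the 3 base chaperones one of 1.24. In the non-ATPase base the median was 0.993. The range over the members was from 0.963 for PSMD1 to 1.79 for PSMB5. PSMD1, PSMD2 and PSMD10 were the 3 members that did not have their highest value in this library.

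**Figure D2:**
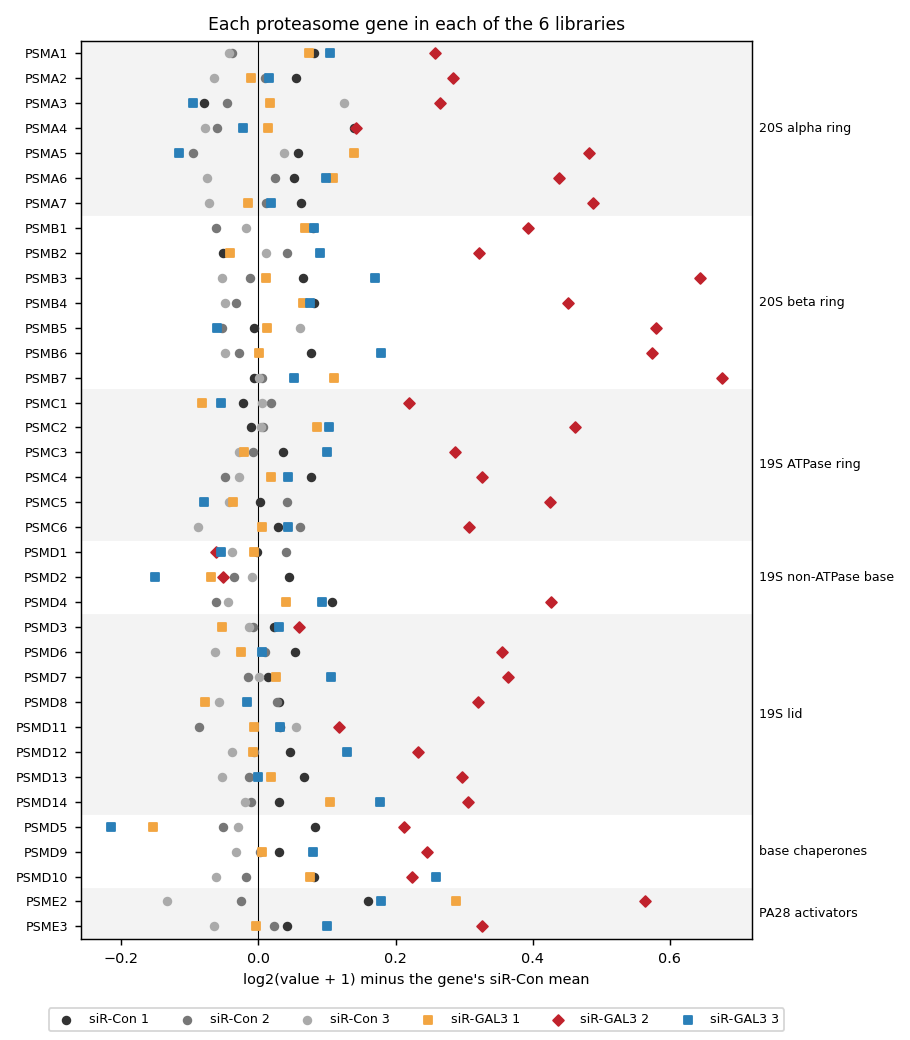
Each of the 36 proteasome genes in each library, as log2(value + 1) minus the gene's mean in the 3 siR-Con libraries. The diamonds of siR-GAL3 replicate 2 stand to the right of all other points for 33 genes, while siR-GAL3 replicates 1 and 3 mix with the siR-Con points for most genes.

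Between the groups, differences were small and none passed a test corrected for all genes. The log2 fold change, here the difference of group means of log2(value + 1) as Glu + siR-GAL3 minus Glu + siR-Con, was above 0 for 33 of 36 members, against 50% of all genes. Its median was 0.13 over the members, with quartiles of 0.09 and 0.19, and 0 over all genes. In limma, 0 members had a Benjamini-Hochberg adjusted p under 0.05, as did 0% of all 8495 genes, and the adjusted p of the members lay between 0.519 and 0.938. At an unadjusted p under 0.05, limma gave 3 members, namely PSMD14, PSMD10 and PSME2, all higher in Glu + siR-GAL3. That is 3 of 36 where 8.66% of all genes passed (4.41% higher and 4.25% lower), so the members' share was near the background. None of the members had an absolute log2 fold change over 1 with an unadjusted p under 0.05, which 0.318% of all genes did. The study's methods give those thresholds for other datasets, and its supplement names DESeq with an adjusted p for this one, which was not run here because the values are not counts.

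In 6 members every siR-GAL3 library lay above every siR-Con library, and in 1 member, PSMD2, every one lay below, while 10.3% of all genes did so in each direction. The 6 were PSMA6, PSMB7, PSMC2, PSMD7, PSMD14 and PSME2. For each of these 7 genes an exact permutation test gave a two-sided p = 0.1, the smallest that 3 libraries against 3 allow. Any gene without overlap gets this value, so the test adds nothing to the lack of overlap.

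The alpha ring, whose 7 subunits shape the outer face and gate of the core, had a median log2 fold change of 0.145, with all 7 above 0 and none at an unadjusted p under 0.05. PSMA6, the member with the smallest p, was at 13.5, 13.2 and 12.3 in the siR-Con libraries and at 14.1, 17.98 and 14.0 in the siR-GAL3 libraries, here and below in the order of replicates 1, 2 and 3. Its groups did not overlap, but siR-GAL3 replicates 1 and 3 were close to siR-Con replicate 1. The log2 fold change was 0.215 (standard error 0.11, limma unadjusted p = 0.085, adjusted p = 0.585).

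PSMA2, the most abundant alpha subunit, was at 16.4, 15.9 and 15.02 in siR-Con and at 15.6, 19.4 and 15.9 in siR-GAL3. The groups overlapped, and only siR-GAL3 replicate 2 stood outside the siR-Con range (log2 fold change 0.10, adjusted p = 0.666 in limma). PSMA5, the least abundant, was at 4.63, 4.06 and 4.55 in siR-Con and at 4.96, 6.55 and 3.99 in siR-GAL3. It had both its highest and its lowest value in the siR-GAL3 group, in replicates 2 and 3. The other 4 alpha subunits (PSMA1, PSMA3, PSMA4 and PSMA7) had log2 fold changes between 0.045 and 0.164 with overlapping groups. Left without siR-GAL3 replicate 2, the median of the ring was 0.002, and it was -0.004 in the fit blocked on library set.

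The beta ring, which holds the active sites, had the highest median log2 fold change of the rings, at 0.20, with all 7 members above 0 and none at an unadjusted p under 0.05. PSMB5, which carries the chymotrypsin-like site, was at 1.78, 1.69 and 1.91 in siR-Con and at 1.81, 3.17 and 1.68 in siR-GAL3. Replicates 1 and 3 of siR-GAL3 lay at the siR-Con level or below it, and the ratio of siR-GAL3 replicate 2 to the mean of the other 5 was 1.79, the highest of all members. The log2 fold change was 0.18 (standard error 0.165, adjusted p = 0.654 in limma) with all libraries and -0.02 without siR-GAL3 replicate 2.

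PSMB6, which carries the caspase-like site, was at 5.47, 5.01 and 4.92 in siR-Con and at 5.13, 8.12 and 5.94 in siR-GAL3. Here siR-GAL3 replicates 2 and 3 were above all siR-Con libraries and replicate 1 was among them. It had the smallest p of the ring (log2 fold change 0.25, standard error 0.14, limma unadjusted p = 0.125, adjusted p = 0.59). PSMB7, which carries the trypsin-like site, was at 2.63, 2.66 and 2.65 in siR-Con and at 2.94, 4.83 and 2.79 in siR-GAL3. All 3 siR-GAL3 libraries lay above a narrow siR-Con range, at means of 2.65 ± 0.016 and 3.52 ± 1.14 (SD, n = 3 each). In limma the log2 fold change was 0.28 (standard error 0.16, adjusted p = 0.59) and 0.08 without siR-GAL3 replicate 2.

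The most abundant beta subunit, PSMB2, was at 16.0, 17.2 and 16.8 in siR-Con and at 16.2, 21.1 and 17.8 in siR-GAL3, with overlapping groups (log2 fold change 0.12). The remaining beta subunits PSMB1, PSMB3 and PSMB4 had log2 fold changes of 0.181, 0.275 and 0.197, also with overlapping groups. As a sum, the 3 catalytic subunits were at 9.88, 9.37 and 9.49 in siR-Con and at 9.89, 16.1 and 10.4 in siR-GAL3.

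The stretches of rat genome just before the start of these 3 catalytic genes are shown beside that of PSMD1, because PSMB5, PSMB6 and PSMB7 were among the members highest in siR-GAL3 replicate 2 and PSMD1 was lowest there. Each is 250 bases, 5′ to 3′ on the gene's strand, from RefSeq on assembly GRCr8. Capitals mark matches on either strand to TGACNNNGC, the core of the antioxidant response element that NFE2L1 and NFE2L2 bind, or to CCAAT, the element bound by NF-Y. The positions are chr15:32047380-32047629 on the minus strand for PSMB5, chr10:55737638-55737887 on the plus strand for PSMB6, chr3:42827471-42827720 on the minus strand for PSMB7 and chr9:94157721-94157970 on the plus strand for PSMD1.
PSMB5: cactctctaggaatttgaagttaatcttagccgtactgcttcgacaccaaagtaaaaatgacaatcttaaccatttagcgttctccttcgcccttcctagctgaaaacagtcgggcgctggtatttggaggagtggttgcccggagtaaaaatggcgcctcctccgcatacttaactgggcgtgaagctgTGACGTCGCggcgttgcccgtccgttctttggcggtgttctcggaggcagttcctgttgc
PSMB6: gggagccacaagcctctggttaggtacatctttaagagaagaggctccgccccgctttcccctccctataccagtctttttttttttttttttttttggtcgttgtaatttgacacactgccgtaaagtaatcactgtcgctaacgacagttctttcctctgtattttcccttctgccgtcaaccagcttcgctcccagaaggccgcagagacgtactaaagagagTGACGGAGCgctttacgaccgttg
PSMB7: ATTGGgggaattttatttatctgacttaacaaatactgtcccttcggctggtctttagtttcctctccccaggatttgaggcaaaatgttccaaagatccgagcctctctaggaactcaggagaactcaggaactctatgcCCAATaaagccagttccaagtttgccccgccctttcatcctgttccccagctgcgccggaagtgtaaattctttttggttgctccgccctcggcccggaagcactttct
PSMD1: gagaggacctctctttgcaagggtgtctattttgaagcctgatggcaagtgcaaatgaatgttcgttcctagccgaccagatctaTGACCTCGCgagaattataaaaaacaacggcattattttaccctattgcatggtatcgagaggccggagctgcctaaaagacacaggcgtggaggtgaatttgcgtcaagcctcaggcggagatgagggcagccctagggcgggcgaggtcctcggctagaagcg

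PSMB5, PSMB6 and PSMD1 held a TGACNNNGC match in these windows, and PSMB7 held CCAAT on each strand and no TGACNNNGC. In windows of 300 bases, which also cover the first 50 bases of the gene, 33 of the 37 named genes had an entry, and PSMA7, PSMD6, PSMD12 and PSMD14 had none. TGACNNNGC was found in 7 of the 33 (21.2%), against 12.2% of all 27457 promoters, and CCAAT in 17 of 33 (51.5%) against 37.7%. In PSMB2 a match of each kind overlapped. The 7 with TGACNNNGC were PSMA3, PSMB2, PSMB5, PSMB6, PSMD1, PSMD3 and PSMD9, and their median ratio of siR-GAL3 replicate 2 to the other 5 libraries was 1.24, against 1.28 for members without it. For CCAAT these medians were 1.25 and 1.29. These are descriptions with no test.

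**Figure D3:**
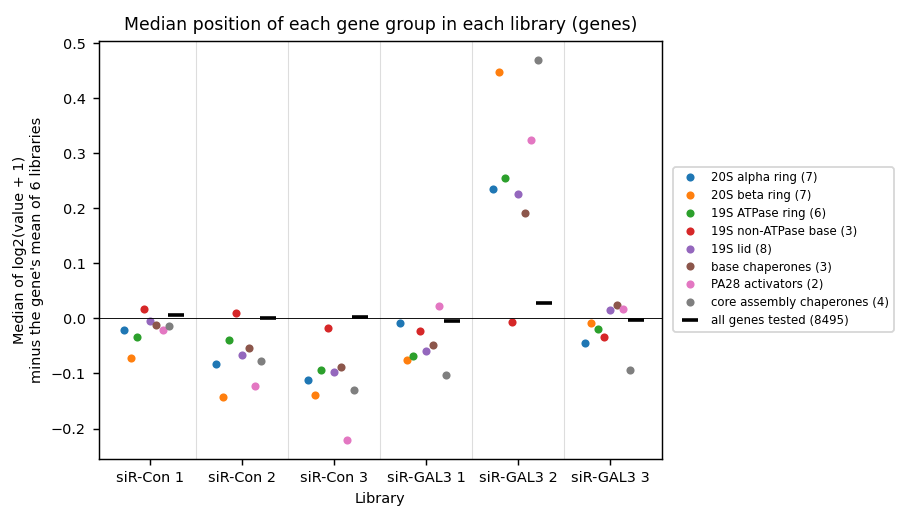
Median position of each gene group in each library, as log2(value + 1) minus the gene's mean over the 6 libraries. In siR-GAL3 replicate 2 the beta ring stands at 0.45 and the ATPase, alpha and lid groups at 0.255, 0.235 and 0.226, the non-ATPase base at -0.01 and all 8495 genes at 0.03.

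The ATPase ring, which unfolds substrates, had a median log2 fold change of 0.12, with all 6 members above 0 and none at an unadjusted p under 0.05. PSMC2 had the smallest p, and was at 8.41, 8.53 and 8.51 in siR-Con and at 9.06, 12.1 and 9.19 in siR-GAL3. All siR-GAL3 libraries lay above the siR-Con libraries, with means of 8.49 ± 0.065 in siR-Con and 10.1 ± 1.70 in siR-GAL3 (SD, n = 3 each). The log2 fold change was 0.216 (standard error 0.11, limma unadjusted p = 0.0898, adjusted p = 0.585) and 0.09 without siR-GAL3 replicate 2.

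PSMC1, the most abundant of all members, was at 17.8, 18.4 and 18.2 in siR-Con and at 17.1, 21.3 and 17.4 in siR-GAL3. Replicates 1 and 3 of siR-GAL3 were below every siR-Con library and replicate 2 above, so the log2 fold change was 0.03 with all libraries and -0.07 without replicate 2. PSMC6, the least abundant ATPase, was at 5.81, 5.96 and 5.28 in siR-Con and at 5.70, 7.26 and 5.88 in siR-GAL3, with overlapping groups (log2 fold change 0.12). PSMC3, PSMC4 and PSMC5 overlapped as well, with log2 fold changes between 0.103 and 0.128.

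The non-ATPase base had a median log2 fold change of -0.04, with 1 of its 3 members above 0. PSMD1, a scaffold of the base, was at 13.1, 13.5 and 12.7 in siR-Con and at 13.02, 12.5 and 12.6 in siR-GAL3, and siR-GAL3 replicate 2 was its lowest library (log2 fold change -0.04, adjusted p = 0.762 in limma). PSMD2, the scaffold that docks ubiquitin-like domains, was at 13.1, 12.4 and 12.6 in siR-Con and at 12.1, 12.2 and 11.3 in siR-GAL3. It was the one member lower in every siR-GAL3 library, by a log2 fold change of -0.09 (standard error 0.065, limma unadjusted p = 0.209, adjusted p = 0.621). PSMD4, a ubiquitin receptor, was at 9.15, 8.03 and 8.14 in siR-Con and at 8.70, 11.7 and 9.06 in siR-GAL3, and had the high value in siR-GAL3 replicate 2 that PSMD1 and PSMD2 lacked (log2 fold change 0.19). The ratio of that library to the mean of the other 5 was 0.963 for PSMD1, 0.993 for PSMD2 and 1.36 for PSMD4.

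The lid, the part that removes the ubiquitin chain, had a median log2 fold change of 0.11, with all 8 members above 0. PSMD14, the deubiquitinase of the lid and its least abundant member, was at 4.345, 4.195 and 4.16 in siR-Con and at 4.62, 5.47 and 4.92 in siR-GAL3. All siR-GAL3 libraries lay above all siR-Con libraries, with means of 4.23 ± 0.098 and 5.003 ± 0.429 (SD, n = 3 each). The log2 fold change was 0.20 (standard error 0.07, limma unadjusted p = 0.0337, adjusted p = 0.535). It stayed at 0.14 without siR-GAL3 replicate 2 (unadjusted p = 0.0227, adjusted p = 0.219 in limma), and over the alternatives its adjusted p ran from 0.219 to 0.874.

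PSMD7, the partner of PSMD14 and the most abundant lid subunit, was at 12.2, 11.9 and 12.05 in siR-Con and at 12.3, 15.8 and 13.03 in siR-GAL3. Its groups did not overlap either, though siR-GAL3 replicate 1 was 12.27 and siR-Con replicate 1 was 12.17 (log2 fold change 0.165, adjusted p = 0.59 in limma). PSMD3, PSMD6, PSMD8, PSMD11, PSMD12 and PSMD13 had overlapping groups and log2 fold changes between 0.01 and 0.12. Within the lid, the ratio of siR-GAL3 replicate 2 to the other 5 libraries ran from 1.05 for PSMD3 and 1.09 for PSMD11 to 1.31 for PSMD6.

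The 3 chaperones that help assemble the base differed in sign. PSMD10, known as gankyrin, was at 1.926, 1.731 and 1.65 in siR-Con and at 1.915, 2.23 and 2.31 in siR-GAL3, so siR-GAL3 replicates 2 and 3 were above the siR-Con libraries and replicate 1 just below the highest of them. It was 1.77 ± 0.142 and 2.15 ± 0.209 (SD, n = 3 each). The log2 fold change was 0.19 (standard error 0.08, limma unadjusted p = 0.0463, adjusted p = 0.571), and 0.17 without siR-GAL3 replicate 2. PSMD5 was at 4.03, 3.58 and 3.65 in siR-Con and at 3.27, 4.504 and 3.09 in siR-GAL3. Its siR-GAL3 replicates 1 and 3 were below all siR-Con libraries and replicate 2 was above them, which gave a log2 fold change of -0.05 with all libraries and -0.185 without replicate 2 (unadjusted p = 0.0133, adjusted p = 0.176 in limma). Over the alternatives the adjusted p of PSMD5 ran from 0.176 to 0.996. PSMD9 had a log2 fold change of 0.11 with overlapping groups.

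Of the PA28 genes, PSME2 encodes a subunit of the cytoplasmic activator, known to be induced by interferon, and PSME3 the nuclear form. PSME2 was at 2.64, 2.20 and 1.97 in siR-Con and at 2.98, 3.82 and 2.69 in siR-GAL3. The groups did not overlap, but siR-GAL3 replicate 3 and siR-Con replicate 1 were next to each other, and the means were 2.27 ± 0.341 and 3.165 ± 0.586 (SD, n = 3 each). Its log2 fold change of 0.34 was the highest of all members (standard error 0.12, limma unadjusted p = 0.0266, adjusted p = 0.519), and it was 0.23 without siR-GAL3 replicate 2. PSME3 was at 4.07, 4.01 and 3.71 in siR-Con and at 3.92, 5.18 and 4.28 in siR-GAL3, with overlapping groups (log2 fold change 0.14).

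Without siR-GAL3 replicate 2 the median log2 fold change of the 36 members was 0.03, with 25 above 0 and 11 below, where 48.9% of all genes were above 0. The medians were 0.002 for the alpha ring, 0.075 for the beta ring, 0.03 for the ATPase ring, -0.03 for the non-ATPase base and 0.01 for the lid. At an unadjusted p under 0.05, limma gave 4 members where 16.3% of all genes passed, 3 higher (PSMD14, PSMD10 and PSME2, against 6.98%) and 1 lower (PSMD5, against 9.36%). After adjustment 0 members passed, where 1.97% of all genes did, and the smallest adjusted p of a member was 0.176. Libraries other than siR-GAL3 replicate 2 also set which members passed the unadjusted test. Leaving out siR-Con replicate 2 or siR-Con replicate 3 gave 0 members and leaving out siR-GAL3 replicate 1 gave 5.

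A fit blocked on library set uses nothing from siR-GAL3 replicate 2, the lone library of its set, and gave the members a median log2 fold change of 0.03. In that limma fit 21 of 36 members were above 0 and 3 had an unadjusted p under 0.05, PSMD14 and PSME2 higher and PSMD5 lower, against 13.8% of all genes. PSMD10 did not pass there (unadjusted p = 0.0756 in limma), and 0 members had an adjusted p under 0.05, against 1.25%. Within both of the sets that held libraries of the 2 groups, 7 of the 36 members were higher in siR-GAL3, where 25.6% of all genes were.

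**Figure D4:**
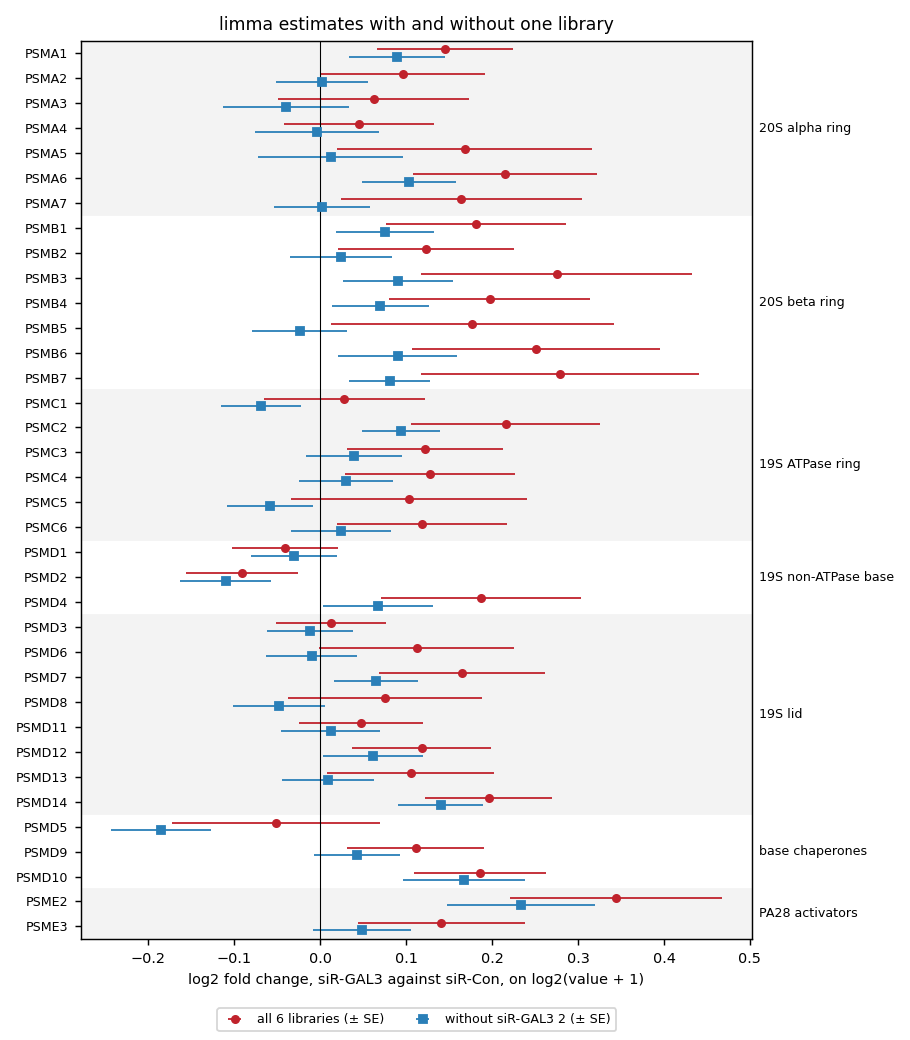
Log2 fold change of each proteasome gene with all 6 libraries and without siR-GAL3 replicate 2, with standard errors from limma. The median over the 36 genes is 0.13 with that library and 0.03 without it, and PSME2, PSMD10 and PSMD14 have the highest values without it.

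The immunoproteasome subunits replace the 3 catalytic ones in cells exposed to interferon, PSMB9 in place of PSMB6, PSMB10 in place of PSMB7 and PSMB8 in place of PSMB5. They were listed apart from the constitutive members. PSMB10 was at 2.21, 1.94 and 1.86 in siR-Con and at 2.81, 3.57 and 2.78 in siR-GAL3. Its log2 fold change was 0.43 (standard error 0.10, limma unadjusted p = 0.003, adjusted p = 0.261). Without siR-GAL3 replicate 2 it was 0.34 with an adjusted p of 0.0382 in limma. In every siR-GAL3 library PSMB10 lay above every siR-Con library, and the difference passed the corrected test in that fit and in no other alternative run, over which the adjusted p in limma ran from 0.0382 to 0.874.

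PSMB8 was at 0.523, 0.274 and 0.374 in siR-Con and at 1.52, 1.20 and 1.19 in siR-GAL3. PSMB9 was at 0.642, 0.548 and 0.563 in siR-Con and at 1.57, 1.41 and 1.11 in siR-GAL3. Both had means under 1 and were tested only with no filter, where the log2 fold changes were 0.73 and 0.57 with adjusted p-values of 0.231 and 0.233 in limma. Neither had its highest value in siR-GAL3 replicate 2, in contrast to PSMB5 and PSMB6. The summed immunoproteasome subunits made up 25.5%, 22.75% and 22.79% of the 6 catalytic genes in siR-Con and 37.4%, 27.7% and 32.8% in siR-GAL3. This share was higher in every siR-GAL3 library, and within that group it was lowest in siR-GAL3 replicate 2, where the constitutive subunits were highest.

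Interferon-stimulated markers differed between the groups in the same direction as PSME2 and the immunoproteasome genes. Summed over the list, whose 12 genes all had a row, they were at 11.2 to 26.5 in siR-Con and 43.8 to 70.1 in siR-GAL3. Values below 0 counted as 0 in this sum, and only 5 of the 12 genes had a mean of at least 1. In siR-Con replicates 2 and 3, IFIT3, MX1, OAS1A, IRF7 and BST2 were below 0, so the siR-Con sums partly rest on the floor. Within siR-GAL3 this sum was highest in replicate 1 and lowest in replicate 2, whereas PSME2 and PSMB10 were highest in replicate 2. Summed microglial markers (10 of 10 listed) were also higher, at 104.5 to 124.7 in siR-Con and 132.8 to 152.4 in siR-GAL3. Singly, 5 of the 9 tested (AIF1, ITGAM, C1QB, C1QC and CD68) were higher without overlap, against 10.3% of all genes. CSF1R, CX3CR1, P2RY12 and C1QA had overlapping groups and log2 fold changes between 0.016 and 0.108. The astrocyte sum (8 of 8 markers listed) was lower without overlap, at 869.8 to 1012 in siR-Con and 751.7 to 813.2 in siR-GAL3. The fibroblast sum (5 of 6 listed) was too, at 43.05 to 50.6 and 33.0 to 38.1. GFAP made up most of the astrocyte sum, at 571.1 to 757.7 in siR-Con and 514.8 to 533.4 in siR-GAL3. Singly, 2 of the 8 astrocyte markers, GFAP and ALDH1L1, were lower without overlap, against 10.3% of all genes. By log2 fold change, 6 of the 8 were below 0, and SLC1A3 (0.058) and GJA1 (0.016) were above. Of all genes, 50% were above 0. Of the 5 fibroblast markers, 4 were below 0 and DCN (0.157) was above. The part of these markers in the group differences was not tested. In siR-GAL3 replicate 2 itself, 5 of 8 astrocyte markers and 3 of 5 tested fibroblast markers had their lowest value, against the 35.1% of all genes given above. The fibroblast marker DCN had its highest value there. Of the oligodendrocyte markers, CNP had its lowest value there and MOG its highest. Microglial markers stood at a median of -0.002 and neuronal ones at -0.007 from their mean on the log2 scale, with members on both sides. Of the 9 microglial markers tested, AIF1 had its highest value there and CSF1R and CX3CR1 their lowest. Of the 5 neuronal markers tested, SYP and STMN2 had their highest value there and MAP2 and ELAVL3 their lowest. The part of these in the high proteasome values of that library was not tested.

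**Figure D5:**
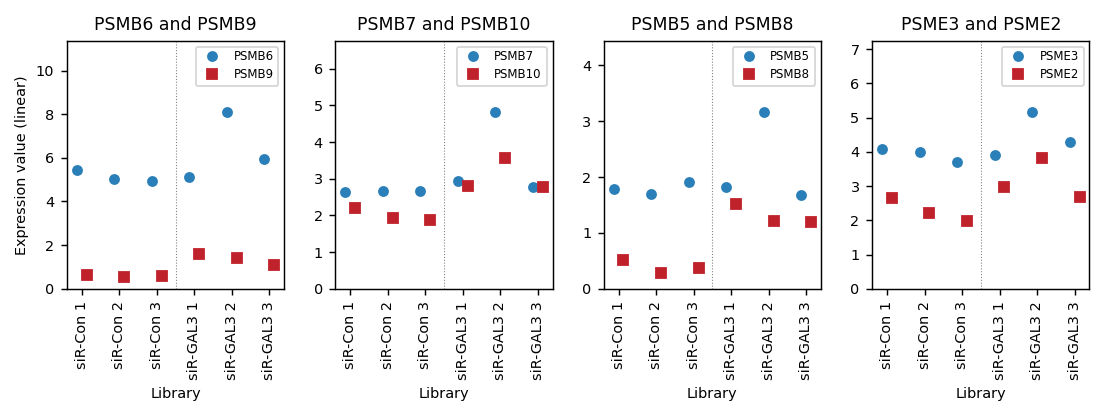
Linear expression value of each catalytic subunit with its immunoproteasome counterpart, and of PSME3 with PSME2, in the 6 libraries, with circles for the constitutive gene or PSME3 and squares for the other. PSMB5, PSMB6 and PSMB7 peak in siR-GAL3 replicate 2, at 3.17, 8.12 and 4.83, as does PSMB10, at 3.57. PSMB8, PSMB9 and PSMB10 lie higher in all 3 siR-GAL3 libraries than in siR-Con, as does PSMB7.

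Other genes of the pathway were read in the same fit. Of 5 tested further subunits, activators and inhibitors, 1 passed an unadjusted p under 0.05 in the higher direction, against 4.41% of all genes. This was PSMF1, which encodes an inhibitor of the core. It was at 3.83, 3.18 and 3.44 in siR-Con and at 4.31, 4.57 and 3.98 in siR-GAL3, with no overlap and a log2 fold change of 0.24 (limma unadjusted p = 0.0229, adjusted p = 0.507). SEM1, the smallest lid subunit, was at 2.90, 2.83 and 3.00 in siR-Con and at 3.23, 6.25 and 3.34 in siR-GAL3. Its value in siR-GAL3 replicate 2 was 2.04 times the mean of the other 5 libraries, a larger ratio than that of any member. SEM1 was named after its values were seen.

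The core assembly chaperones PSMG1, PSMG2, PSMG3 and PSMG4, the 4 of that list with a mean of at least 1, were all highest in siR-GAL3 replicate 2. Of all genes, 41.5% were highest there. The ratios of the 4 chaperones to the mean of the other 5 libraries were between 1.496 and 1.907, with a median of 1.85. None of the 4 had an unadjusted p under 0.05 in limma, against 8.66% of all genes. PSMG4, with the smallest p, was at 1.349, 1.09 and 1.11 in siR-Con and at 1.37, 2.275 and 1.19 in siR-GAL3 (log2 fold change 0.24, adjusted p = 0.603 in limma). Without siR-GAL3 replicate 2, the median log2 fold change of the 4 was 0.01.

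Among 5 listed regulators of the proteasome (NFE2L1, NFE2L2, DDI2, NGLY1 and AKIRIN2), 1 passed an unadjusted p under 0.05, in the lower direction, against 4.25% of all genes. This was DDI2, the protease that activates NFE2L1, at 1.74, 1.73 and 1.70 in siR-Con and at 1.51, 1.37 and 1.53 in siR-GAL3 (log2 fold change -0.14, limma unadjusted p = 0.049, adjusted p = 0.574). NFE2L1 itself, the factor that drives proteasome genes when proteasome activity falls, was named after its values were seen. It was at 8.10, 7.82 and 8.57 in siR-Con and at 7.82, 4.68 and 7.17 in siR-GAL3. Its lowest value was in siR-GAL3 replicate 2, the library in which 33 members were highest, at a ratio of 0.593 to the mean of the other 5 (log2 fold change -0.30, adjusted p = 0.589 in limma). Of all genes, 35.1% were lowest in that library. On the same list DDI2 was also lowest there, and NGLY1 and AKIRIN2 were highest, at ratios of 1.28 and 1.26. A link between NFE2L1 and the members was not tested.

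Of the ubiquitin genes and activating enzymes reported here, 0 of 4 tested passed an unadjusted p under 0.05 in limma, against the 8.66% of all genes given above. RPS27A, which encodes ubiquitin fused to a ribosomal protein and had the smallest p, was at 30.9, 29.5 and 27.6 in siR-Con and at 31.6, 39.75 and 32.9 in siR-GAL3 (log2 fold change 0.23, adjusted p = 0.577 in limma). RPS27A and UBB were highest in siR-GAL3 replicate 2, and UBA1, the main activating enzyme, was lowest there. Of the 8 genes listed for proteins that bind the proteasome, mostly shuttle factors and deubiquitinases, 1 passed in the lower direction, again against 4.25%. UBQLN2, which carries ubiquitin-tagged proteins to the proteasome, was at 4.60, 4.82 and 4.74 in siR-Con and at 4.04, 4.22 and 4.20 in siR-GAL3 (log2 fold change -0.15, limma unadjusted p = 0.0414, adjusted p = 0.558). In the unfoldase complex 0 of 3 genes passed an unadjusted p under 0.05 in limma, again against 8.66%. VCP, its ATPase, was at 26.7, 26.2 and 26.0 in siR-Con and at 25.15, 21.7 and 23.6 in siR-GAL3 (log2 fold change -0.16, adjusted p = 0.585 in limma).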

How the data were processed

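RNA of 6 libraries, 3 of Glu + siR-Con and 3 of Glu + siR-GAL3, was analysed from 1 expression matrix. The authors aligned reads with STAR, counted them with HTSeq 0.5.4 and estimated FPKM, and then applied a batch correction, a standardization and a correction within groups, with tools not named. The deposited values are therefore a linear score that started from FPKM, and 3.86% of them were below 0. FPKM had been assumed when the tests were chosen. The genome build is not given in the sources used here. The supplement describes poly-A selection and the labels ribosomal depletion.

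Values below 0 were set to 0, which touched no member, and log2(value + 1) was fitted with limma 3.58.1 in R 4.3.3 (intensity trend) for 8495 genes whose mean reached at least 1. Adjusted p-values are Benjamini-Hochberg values over those genes. On this scale the change of low genes is understated. Because depth is unknown there is no counting error to give, and the precision is limited by 3 libraries a group. Single genes without overlap were compared with exact permutation tests in SciPy 1.17.1, and the limma code was tested on simulated data. Members and lists were chosen with earlier results of these data known. Genes named with all values are members with an unadjusted p under 0.05, the catalytic subunits, in each group the smallest p and the highest and lowest mean, and in other lists up to 3 genes by p. The alternatives were quantile normalization, a pseudocount of 0.1, no intensity trend, no filter or a minimum mean of 10, scaling by median ratios, the replicate number or the library set as a block, each library left out, and leaving out genes with a value below 0. Promoters were matched by symbol in RefSeq (GRCr8). Protein sequences were not used here, and 1 gene each of the ubiquitin and oligodendrocyte lists is not reported here.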

Additional observations from a re-analysis of the deposited data

How the results depend on the processing

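All 15 alternatives kept the direction of the median log2 fold change of all members (0.03 to 0.18), the beta ring (0.06 to 0.29), the ATPase ring (0.02 to 0.18) and the lid (0.004 to 0.17). The alpha ring, at 0.145, had 0.0022 without siR-GAL3 replicate 2 and -0.0042 when blocked on library set, and 0.12 to 0.19 under the other 13. The members with an unadjusted p under 0.05, 3 with all libraries, were 0 of 18 at a mean of at least 10, 1 with the replicate number as a block and 0 to 5 with each library left out. Over all genes, 736 passed, against 1623 with no filter, 121 at a mean of at least 10, 1174 when blocked on library set and 344 to 1388 with each library left out. The lowest of these counts came without siR-Con replicate 3 (344) and siR-Con replicate 2 (350), and the highest without siR-GAL3 replicate 1 (1249) and siR-GAL3 replicate 2 (1388). The causes were not tested. Blocking on library set turned the log2 fold change of 12 members from above to below 0, leaving 21 of 36 above. Among those with all values in the text these were PSMA2 (-0.004), PSMA5 (-0.015), PSMB5 (-0.028) and PSMC1 (-0.063), and the others were PSMA3, PSMA4, PSMA7, PSMC5, PSMD3, PSMD6, PSMD8 and PSMD13. With each library left out, it ranged from -0.024 to 0.296 for PSMB5 and from -0.069 to 0.083 for PSMC1, lowest without siR-GAL3 replicate 2, and from -0.185 to 0.029 for PSMD5, highest without siR-GAL3 replicate 3. With the replicate number as a block, 543 genes had an unadjusted p under 0.05 and 6 an adjusted p under 0.05. Deviations of same-numbered libraries from their group means had correlations of -0.17, -0.07 and 0.04 across genes. Both replicates 1 shared a library set, as did both replicates 3, and both replicates 2 did not. Because the values had been corrected within groups, these correlations cannot settle whether the numbers pair the samples. With values after the authors' correction and no depth, differences among genes listed near 0, such as POMP and PSMA8, cannot be read.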
